A study of Bos taurus with 18 samples.

Results

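The 35 genes described here encode glucose carriers, the enzymes of glycolysis, the lactate dehydrogenases, the proteins that bring pyruvate into the citrate cycle or hold it back, and enzymes of that cycle. They were measured by RNA sequencing in bovine oocytes and embryos. The genes were taken as a list by pathway step, and all 35 are among the 21668 gene rows of the deposited table. All 35 had at least 1 read in at least 3 of the 18 libraries and entered the tests. The samples were pools of 10 oocytes or embryos at 6 stages, with 3 pools a stage. Oocytes came from German Simmental ovaries and had been freed of cumulus cells, either before maturation at the germinal vesicle stage (GV) or after maturation in vitro, at metaphase II (MII). Embryos were taken with 4, 8 or 16 cells or as blastocysts, carry the breed label German Simmental x Brahman and were made by fertilisation in vitro with sperm of a Zebu bull. The media used for maturation and fertilisation held pyruvate and lactate, and embryos were cultured in an atmosphere with less oxygen than air. Because only the embryos had a Brahman sire, stage and breed cannot be told apart where embryos were compared with oocytes. Labels and protocols name separate pools and say nothing on shared donors or days, so p-values measure the spread between these pools.

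Glycolysis splits glucose into pyruvate in the cytosol, and lactate dehydrogenase interconverts pyruvate and lactate. In mitochondria the pyruvate dehydrogenase complex turns pyruvate into acetyl-CoA for the citrate cycle, and the pyruvate dehydrogenase kinases switch that complex off by phosphorylation. Mammalian oocytes and cleaving embryos are known to live mainly on pyruvate and lactate, and glucose uptake is known to increase around compaction and blastocyst formation.

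The deposited values lie on a variance-stabilised log2 scale, from which whole reads were recovered. Levels are given as scaled counts, the reads of a gene divided by the library's size factor, listed in the order of replicates 1 to 3 or as mean ± SD (n = 3). Differences are on the deposited log2-like scale with their SE and come from limma, fitted to 17138 genes with Benjamini-Hochberg adjustment over all of them. A gene rose or fell where its adjusted p was under 0.05. Each library held 2438473 to 11971840 reads in genes, and 1 read was worth 0.563 to 2.82 scaled counts. Gene lengths were not used, so levels are compared between stages of 1 gene and not between genes.

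Summed markers fitted the stage labels and changed steeply over the same interval as the metabolic genes. The sum of 10 oocyte genes was 100.7 to 313.3 scaled counts in blastocysts, against 6125 to 19380 in 16-cell embryos, and had been 62857 to 124354 at the 8-cell stage. The 8 trophectoderm genes in the table summed to 22260 to 52626 in blastocysts and to at most 1037 in every earlier library. Most of the blastocyst sum was KRT8 (19587 ± 8018) and KRT18 (13818 ± 6365). CDX2 averaged 144.7 ± 170.4 in 8-cell embryos and 143.9 ± 63.7 in blastocysts, and TFAP2A 65.8 ± 12.4 and 32 ± 7.16. The 3 inner cell mass genes summed to 2087 to 4056 in blastocysts, against 1566 to 2468 in 16-cell embryos. Among them NANOG was lower in blastocysts (168 ± 128.3) than in 16-cell embryos (1537 ± 546.6), whereas POU5F1 was higher (2441 ± 1125 against 471.6 ± 46.2). The 18 cumulus and granulosa genes summed to 2955 to 4030 in GV oocytes and 578.9 to 4441 over all libraries, and in GV oocytes 15 of the 18 had reads. Most of the GV sum came from STAR (1665 ± 89.5), VCAN (848 ± 278.5) and HAS2 (728.5 ± 238), while LHCGR, FOXL2 and TNFAIP6 were at 0. GV replicate 3 was the highest GV library for several others, with 94.6 scaled counts of FSHR, 118.1 of FST, 90.9 of INHA, 97.5 of INHBA and 74.8 of CYP19A1. In GV replicates 1 and 2, FSHR had 0.948 and 2.12, FST 0.948 and 4.95, INHA 0 and 5.65, INHBA 0 and 33.9, and CYP19A1 8.53 and 19.8. Other genes of the list were highest elsewhere, among them STAR in GV replicate 1 (1761, against 1650 in replicate 3) and HAS2 in replicate 2 (996.1, against 649.1). In such bulk samples fewer cells of a type and less RNA per cell cannot be told apart, and the part of cell types in the results was not tested. By the number of members lowest or highest in their stage, 3 libraries stood out most. 8-cell replicate 2 was the lowest of its stage for 17 of 35 members, against 35.4% of all genes, and 16-cell replicate 1 for 18 of 35, against 30% of all genes. 8-cell replicate 2 was also the highest of its stage for 13 members, against 29.6% of all genes, and 16-cell replicate 3 for 16, against 32.2%. The median deviation of members from the other libraries of the stage was largest in 8-cell replicate 3 (0.62, and -0.38 in 8-cell replicate 2). GV replicate 3 was the highest of its stage for 18 of 35, against 31.3% of all genes. PGK1 had 349.1 scaled counts there and HK2 192.9, where the other GV libraries had 96.7 and 86.2 of PGK1 and 51.2 and 8.48 of HK2. Without it 21 members rose and 4 fell in blastocysts against GV oocytes, where TPI1 was the call lost (adjusted p = 0.058), and 0 were called in MII against GV oocytes.

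Across the 6 stages 31 of 35 members changed, against 67% of all genes tested (limma F test). The exceptions were HK1 (adjusted p = 0.11), PFKM (0.5), PFKP (0.79) and ALDOC (0.1). Most of the change fell in the last intervals of the series, for the members as for all genes. From the GV to the MII stage 2 members changed (5.71%, against 0.712% of all genes), and from MII to 4 cells 1 (2.86%, against 0.794%). Between 4 and 8 cells 2 changed (5.71%, against 12.8% of all genes). In 16-cell against 8-cell embryos 15 members rose and 3 fell, and in blastocysts against 16-cell embryos 20 rose and 0 fell by limma. In the latter, 1 member, PDK2, was lower at an unadjusted p under 0.05, and another, SLC2A3, was called lower by voom. The share of all genes that rose was 14.8% and that fell 16.3% in the first of these comparisons, and 18.2% and 13.1% in the second. For 21 of 35 members, 60%, the stage with the highest mean was the blastocyst, against 30.4% of all genes. Without 8-cell replicate 2 and 16-cell replicate 1, 12 members rose and 4 fell in 16-cell against 8-cell embryos, and 19 rose and 1 fell in blastocysts against 16-cell embryos. In 8-cell against 4-cell embryos 5 then rose (SLC2A3, PGK1, HK2, IDH3B and PC) and 1 fell (CS), in place of 2 and 0. Counted by libraries that did not overlap, whatever the test, 2 members were higher and 6 lower in MII against GV oocytes, where 7.95% of all genes were higher and 9.96% lower. In 4-cell embryos against MII oocytes 2 were higher and 8 lower (7.4% and 10.4% of all genes), and in 8-cell against 4-cell embryos 5 were higher and 2 lower (13% and 12.9%). In 16-cell against 8-cell embryos 14 were higher and 3 lower (15.4% and 16.2% of all genes). In blastocysts against 16-cell embryos 23 were higher and 1, HK2, lower (21.6% and 15.5% of all genes). In blastocysts against GV oocytes 25 were higher and 4 lower, where 31.9% and 25% of all genes were. The median difference of the members was 1.17 in 16-cell against 8-cell embryos, where that of all genes was 0, and 1.74 in blastocysts against 16-cell embryos, where that of all genes was 0.18.

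**Figure D1:**
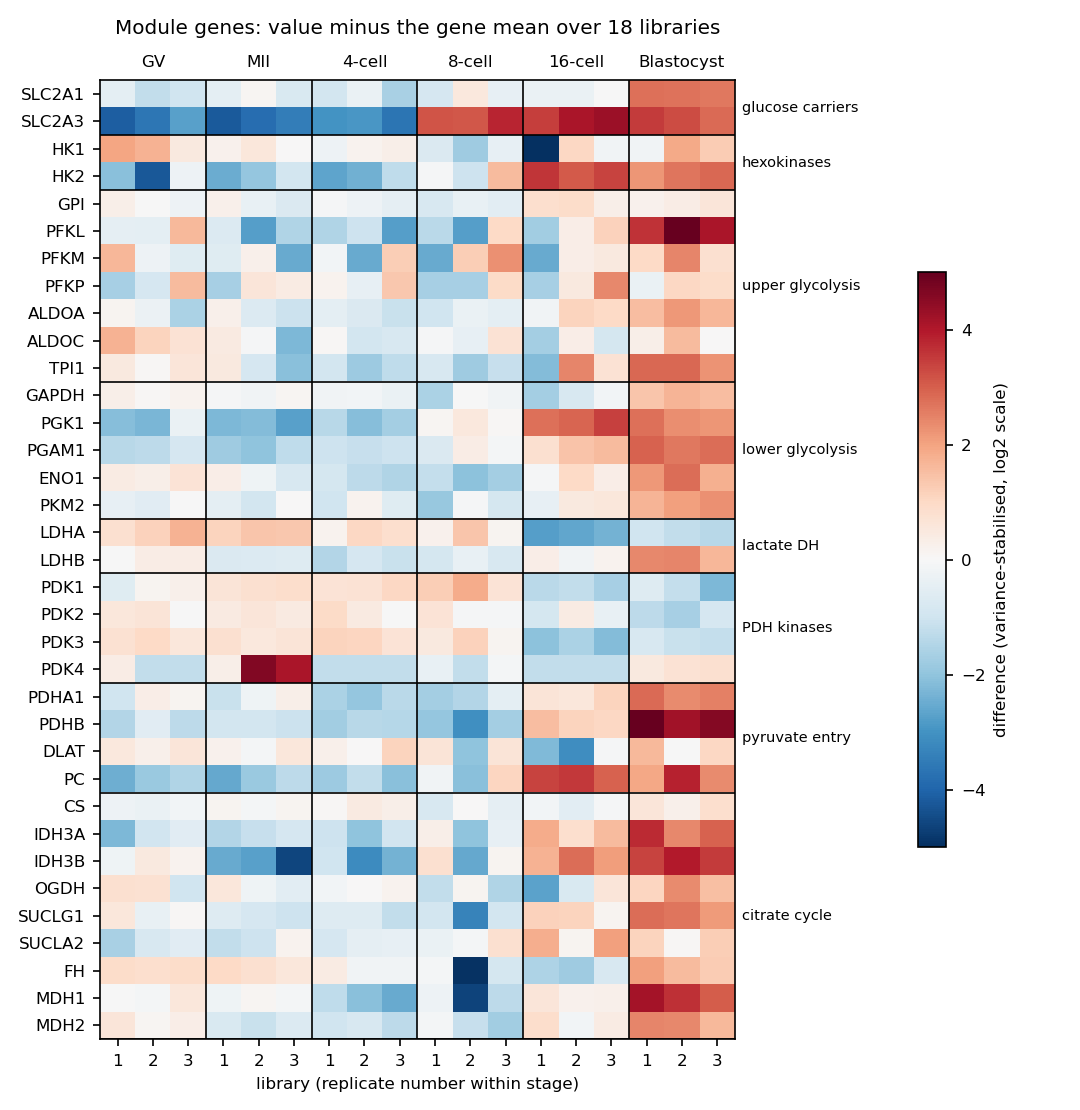
Rows are the 35 genes by pathway step and columns the 18 libraries by stage; colour gives the deposited log2-scale value minus the gene's mean over all libraries, on a scale that ends at 5 in both directions. Most rows are darkest red in the blastocyst columns, whereas LDHA, PDK1, PDK2 and PDK3 are blue there.

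The glucose carriers rose at different stages. SLC2A3, which encodes the glucose carrier GLUT3, had 5395, 5265 and 8486 scaled counts in 8-cell embryos, against 72.6, 76.2 and 44.4 in 4-cell embryos. Every 8-cell library was far above every library of the 3 earlier stages, in which the gene lay between 29 and 88.7. The rise was 99.1-fold (difference 6.54 ± 0.38, limma adjusted p = 2.1e-10), in a comparison where 8.64% of all genes rose and 4.13% fell. At the 16-cell stage the values were 6688, 10181 and 11771, and in blastocysts 6822, 5840 and 4338. The difference was 0.58 in 16-cell against 8-cell embryos (adjusted p = 0.27) and -0.74 in blastocysts against 16-cell embryos (adjusted p = 0.16), which was called lower by voom (-0.65, adjusted p = 0.038) and with library medians set equal (-1.10, adjusted p = 0.048).

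SLC2A1, which encodes GLUT1, had 2827, 2775 and 2632 scaled counts in blastocysts, against 332.6, 333.2 and 406.5 in 16-cell embryos. All blastocyst libraries lay above the 610.9 of 8-cell replicate 2, the highest of the 15 earlier libraries. The rise was 7.68-fold (2.93 ± 0.40, adjusted p = 1.1e-05), and none of the 4 earlier intervals passed the test. SLC2A3 took 11.3% ± 5.05 to 22.9% ± 3.71 of the summed scaled counts of both carriers at the first 3 stages. It took 94.0% ± 3.8 at the 8-cell, 96.3% ± 0.861 at the 16-cell and 66.9% ± 4.3 at the blastocyst stage. Transcript lengths are not taken into account in these shares, so they compare stages and not molecules.

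Hexokinase, the enzyme that traps glucose as glucose-6-phosphate, is encoded by HK1 and HK2. HK2 had 2764, 1951 and 2420 scaled counts in 16-cell embryos, against 220.3, 109.2 and 702.2 in 8-cell embryos. The libraries of both stages did not overlap, and HK2 rose 6.92-fold (3.17 ± 0.75, limma adjusted p = 0.0031). In 8-cell against 4-cell embryos, where HK2 had 33.2, 40.6 and 94, the difference was 2.26 ± 0.75 and missed the threshold (adjusted p = 0.052). It passed without 8-cell replicate 2 together with 16-cell replicate 1 (2.86, adjusted p = 0.016) and under 3 further settings, among them the replicate block (adjusted p = 0.012).

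HK1 had 129.3, 548.8 and 354.3 scaled counts in blastocysts and 588.7, 493.8 and 203.9 in GV oocytes, which overlapped. Its 8-cell libraries (87.7, 39.7 and 108.9) lay below the 4-cell ones (121.5, 164.8 and 178.9), without a call (adjusted p = 0.64). In blastocysts against 16-cell embryos the HK1 difference was 2.75 (adjusted p = 0.065), and voom called it higher (3.77, adjusted p = 0.034). HK1 had 0 reads in 16-cell replicate 1, where 3 reads would be 3.371 scaled counts, while the other 16-cell libraries had 302.1 and 128.1. The share of HK2 in the sum of both genes was 19.4% ± 25.5 in GV oocytes, 28.2% ± 14.7 in MII oocytes and 25.2% ± 8.03 at the 4-cell stage. It was 77.1% ± 8.21 at the 8-cell, 93.9% ± 6.77 at the 16-cell and 81.7% ± 8.22 at the blastocyst stage, and no 8-cell, 16-cell or blastocyst library fell below the highest earlier share of 48.6%.

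**Figure D2:**
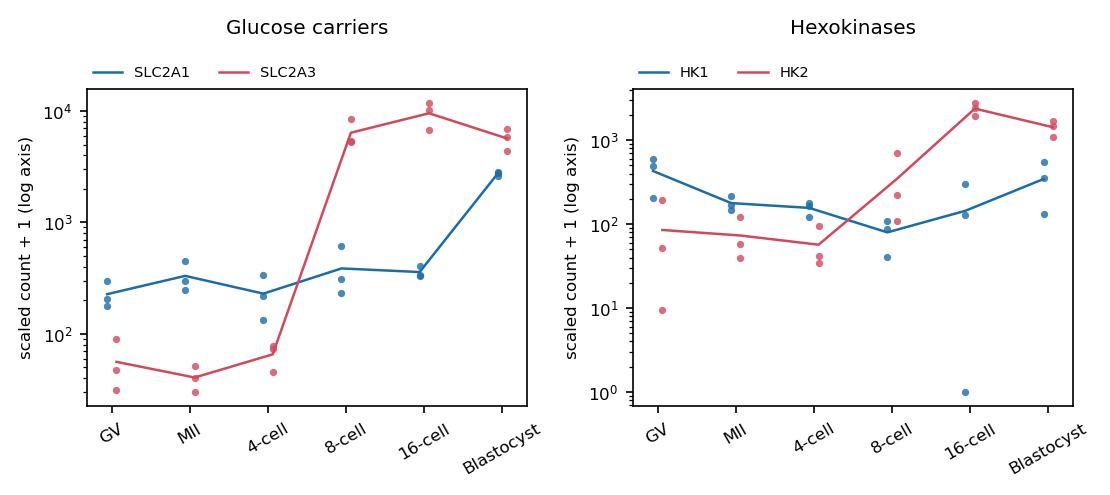
Scaled counts plus 1 on a log axis for the glucose carriers SLC2A1 and SLC2A3 and the hexokinases HK1 and HK2 at the 6 stages; points are libraries and lines join stage means. SLC2A3 lies between 5265 and 11771 in 8-cell and 16-cell libraries and at 88.7 or less in earlier ones, and SLC2A1 is above 2600 only in blastocysts.

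Of the 7 genes of upper glycolysis, GPI and ALDOA rose in 16-cell against 8-cell embryos, and PFKL and TPI1 in blastocysts against 16-cell embryos. GPI, the isomerase that makes fructose-6-phosphate, had 3199, 3380 and 2192 scaled counts in 16-cell embryos, against 1023, 1365 and 1243 in 8-cell embryos. That was a 2.42-fold rise without overlap (1.25 ± 0.28, adjusted p = 0.0022). ALDOA, the aldolase that splits the sugar bisphosphate, averaged 979.2 ± 401.5 in 16-cell and 386.4 ± 84.9 in 8-cell embryos (1.25 ± 0.45, adjusted p = 0.038), and 2064 ± 509.9 in blastocysts. ALDOA rose 4.74-fold in blastocysts against GV oocytes (2.37 ± 0.45, adjusted p = 2e-04). ALDOA at the 16-cell stage no longer passed when replicate 1 or 3 of the 8-cell embryos was left out (adjusted p = 0.13 and 0.056), or replicate 2 or 3 of the 16-cell embryos (0.13 and 0.12). It was lost also by voom (0.072), with array weights (0.062) and with only both stages in the fit (0.089).

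Phosphofructokinase, which commits sugar to glycolysis, was scarcely read before the blastocyst. PFKL, its liver-type gene, had 173.3, 533.5 and 240.1 scaled counts in blastocysts, against 1.12, 14.1 and 27.8 in 16-cell embryos. The highest of the 15 earlier libraries was GV replicate 3 with 40.3, below every blastocyst library. The rise over the 16-cell stage was 22-fold (4.39 ± 1.02, adjusted p = 0.0023). The muscle-type gene PFKM stayed between 0 and 62.4 and the platelet-type gene PFKP between 0 and 31.6 in all libraries. PFKL made up 89.0% ± 1.08 of the 3 genes' sum in blastocysts, from 1121 reads, whereas 45 to 145 reads a stage stood behind the earlier shares.

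TPI1, the triosephosphate isomerase, averaged 500.7 ± 115.1 in blastocysts and 186.2 ± 210.5 in 16-cell embryos, whose libraries had 13.5, 420.7 and 124.4 and overlapped the blastocysts. Its call (2.33 ± 0.84, adjusted p = 0.04) did not hold when 16-cell replicate 1 was left out (1.08, adjusted p = 0.28) or any 1 of the blastocyst libraries (adjusted p from 0.057 to 0.1), and with array weights (0.15), library medians set equal (0.054) or only both stages (0.09). ALDOC, the aldolase best known from brain, was highest in GV oocytes with 175.1 ± 65.2 and averaged 126.6 ± 80.5 in blastocysts, and none of its comparisons passed.

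In lower glycolysis all 5 genes rose in blastocysts against GV oocytes, where 25.6% of all genes rose and 20.4% fell, but they did so at different times. PGK1, the first of the enzymes that make ATP, had 467, 625.4 and 458 scaled counts in 8-cell embryos, against 162, 97.6 and 130.6 in 4-cell embryos. It rose 3.97-fold there (1.97 ± 0.43, adjusted p = 0.0032) and, with SLC2A3, was 1 of the 2 members that rose at that stage. In 16-cell embryos PGK1 had 2954, 3295 and 4727, a further 7.08-fold rise (2.80 ± 0.43, adjusted p = 8.2e-05) without overlap. In blastocysts it had 2990, 2183 and 2027, and the difference from 16-cell embryos was not called.

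PGAM1, the phosphoglycerate mutase, rose in both late intervals. It had 3680, 2957 and 3290 scaled counts in blastocysts, against 828.1, 1254 and 1427 in 16-cell embryos (1.53 ± 0.35, adjusted p = 0.0019). The 16-cell values lay in turn above the 284.5, 615.4 and 434.4 of 8-cell embryos (1.42 ± 0.35, adjusted p = 0.0039). ENO1, the enolase, had its lowest mean at the 8-cell stage, 95.4 ± 30.3, and rose 4.46-fold by the 16-cell stage, where it averaged 425.6 ± 160.9 (2.09 ± 0.41, adjusted p = 0.00069). In blastocysts it averaged 1500 ± 548.2, a further 3.52-fold rise over 16-cell embryos (1.81 ± 0.41, adjusted p = 0.0018).

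GAPDH, the dehydrogenase of glyceraldehyde-3-phosphate, rose late. It had 2200, 2763 and 2438 scaled counts in blastocysts, against 253.9, 482.8 and 757.2 in 16-cell embryos. Every blastocyst library was above 1026, the highest value of any earlier library, and the rise was 4.95-fold (2.43 ± 0.39, adjusted p = 6.5e-05). Between GV and 16 cells its stage means were 949.9 ± 77, 813.8 ± 78, 728.7 ± 51.4, 616.5 ± 298.1 and 498 ± 252, with no interval called. PKM2, the pyruvate kinase listed under that older symbol, averaged 2276 ± 451.6 in blastocysts and 685.1 ± 230.4 in 16-cell embryos (1.77 ± 0.44, adjusted p = 0.0036). Its 16-cell rise over the 329.7 ± 196.7 of 8-cell embryos was at the threshold (1.17 ± 0.44, adjusted p = 0.047), with overlapping libraries, and fragile. It was lost by voom (adjusted p = 0.1), with library medians set equal (0.1), with no filter (0.053), with only both stages (0.16) and without any 1 of 13 libraries. These were all GV and blastocyst libraries, MII replicates 1 and 2, 4-cell replicate 3, 8-cell replicates 1 and 3, and 16-cell replicates 2 and 3, with the lowest value left without 8-cell replicate 1 (0.69, adjusted p = 0.26).

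The share of LDHA in the sum of LDHA and LDHB dropped between the 8-cell and 16-cell stages. LDHA, known for the muscle-type subunit, had 268.5, 304.9 and 354.5 scaled counts in 16-cell embryos, against 2140, 4863 and 2053 in 8-cell embryos. No library of 16-cell embryos came near the 12 earlier ones, of which the lowest had 2053. The level was 9.76-fold lower (-3.16 ± 0.33, adjusted p = 2.3e-06). In blastocysts LDHA had 924.5, 794.2 and 703.7, a 2.61-fold rise over 16-cell embryos (1.37 ± 0.33, adjusted p = 0.0031) that was lost by voom (adjusted p = 0.082) and with library medians set equal (0.072). It stayed 5.63-fold lower in blastocysts than in GV oocytes (-2.44 ± 0.33, adjusted p = 4.6e-06).

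LDHB, known for the heart-type subunit, had 3783, 3859 and 2259 scaled counts in blastocysts, against 904.5, 635.3 and 798.1 in 16-cell embryos. These libraries lay above all earlier ones, and LDHB rose 4.24-fold (2.05 ± 0.30, adjusted p = 2.8e-05). In 16-cell against 8-cell embryos, with 387.8, 558.2 and 409.5, the libraries did not overlap but the difference of 0.78 ± 0.30 missed the threshold (adjusted p = 0.054), which it passed with the replicate block (adjusted p = 0.049). LDHA held 83.7% ± 3.05, 91.1% ± 0.668, 90.3% ± 1.09 and 85.9% ± 3.35 of the sum of both genes from GV to 8 cells. It held 28.7% ± 5.09 at the 16-cell and 20.2% ± 3.37 at the blastocyst stage. The lowest of the earlier shares was 81.9% and the highest of the later ones 32.4%. Over the same interval the summed oocyte markers fell too, as given above, and their part in the fall of LDHA was not tested. LDHC, another lactate dehydrogenase gene, is not a member and does not enter these shares. It averaged 744.7 ± 83.5 scaled counts in GV oocytes and 131.5 ± 34 in 8-cell embryos. At the 16-cell stage LDHC averaged 18.3 ± 9.93, and in blastocysts 10.7 ± 9.3.

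**Figure D3:**
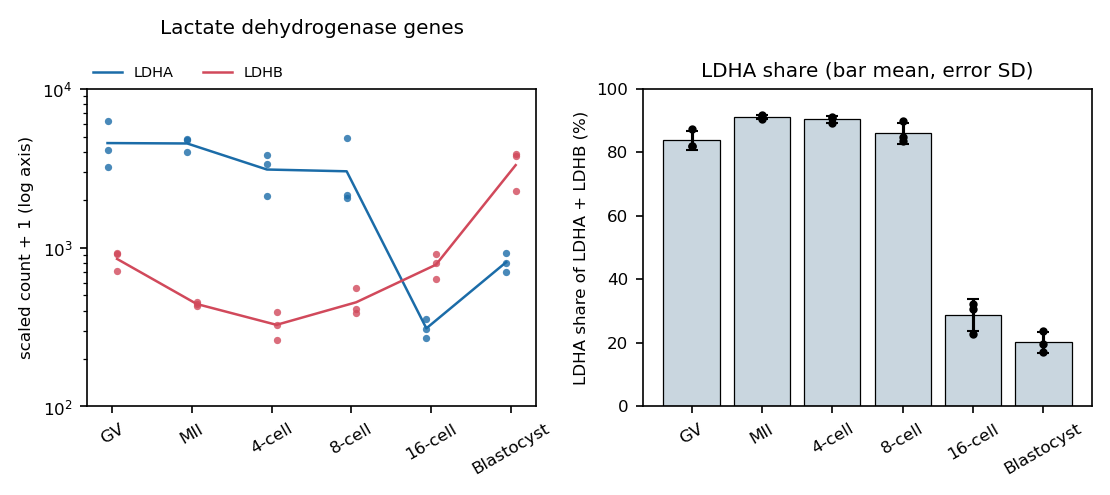
Left, scaled counts plus 1 of LDHA and LDHB on a log axis (points are libraries, lines join stage means); right, LDHA as a percentage of LDHA plus LDHB (bars are means, whiskers SD, points libraries). LDHA holds 81.9% or more of the sum in each library up to 8 cells and 32.4% or less afterwards.

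Among the pyruvate dehydrogenase kinases, PDK1 and PDK3 fell together with LDHA; these were the 3 members that fell in 16-cell against 8-cell embryos. PDK1 had 416.8, 448.9 and 334.1 scaled counts in 16-cell embryos, against 2557, 3921 and 1743 in 8-cell embryos. PDK3 had 253.9, 347.3 and 228.3 in 16-cell embryos, against 1476, 2313 and 1150 in 8-cell embryos. Neither gene's 16-cell libraries overlapped those of any earlier stage. PDK1 was 6.85-fold lower (-2.70 ± 0.37, adjusted p = 2.9e-05) and PDK3 5.95-fold lower (-2.52 ± 0.29, adjusted p = 6.8e-06). In blastocysts PDK1 averaged 459.9 ± 235 and PDK3 515.1 ± 72.2. PDK3 thereby rose 1.86-fold over 16-cell embryos (0.90 ± 0.29, adjusted p = 0.023), a call lost in 7 other fits. With library medians set equal the PDK3 difference was 0.54 (adjusted p = 0.3). The call was lost by voom (0.12), with only both stages (0.12) and with array weights (0.067). It was lost also without 16-cell replicate 1 (adjusted p = 0.054), without 16-cell replicate 3 (0.069) and without blastocyst replicate 1 (0.087).

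PDK2 passed in none of the 5 intervals in the model of all libraries but was lower in blastocysts, with 57.3, 43.8 and 79.4 scaled counts, than in GV oocytes, with 218, 228.9 and 143 (-1.65 ± 0.46, adjusted p = 0.0058). PDK1 and PDK3 were also lower in blastocysts than in GV oocytes (-1.29 ± 0.37, adjusted p = 0.0073, and -1.81 ± 0.29, adjusted p = 3.7e-05). PDK1's call was lost without blastocyst replicate 3 (-0.85, adjusted p = 0.069).

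PDK4 had 2.56, 119.2 and 80.7 scaled counts in MII oocytes, against 2.84, 0 and 0 in GV oocytes, where 3 reads in all were counted. Its libraries overlapped, because MII replicate 1 was as low as the GV libraries. It was the 1 member called higher in MII against GV oocytes (3.70 ± 0.82, adjusted p = 0.035), a comparison in which 0.0992% of all genes rose and 0.613% fell. It was also the 1 member called in 4-cell embryos, with 0 reads in all 3 libraries, against MII oocytes (-4.22 ± 0.82, adjusted p = 0.011), where 0.0642% of all genes rose and 0.729% fell. No fold is given for either. The first call was lost without any 1 of the GV libraries (adjusted p from 0.064 to 0.17), MII replicate 2 (0.21), MII replicate 3 (0.18) or 4-cell replicate 1 (0.052). The second was lost without MII replicate 2 (0.091), MII replicate 3 (0.088), 4-cell replicate 1 (0.055) or 4-cell replicate 3 (0.054).

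Of the 4 genes that pass pyruvate on, PDHA1, PDHB and PC rose in the interval in which PDK1 and PDK3 fell. PDHB, the beta subunit of the pyruvate dehydrogenase E1 enzyme, had 4614, 2682 and 3524 scaled counts in blastocysts, against 419.1, 310.6 and 300.7 in 16-cell embryos. The 16-cell libraries were themselves far above the 34.2, 13.7 and 40.7 of 8-cell embryos. It rose 11.6-fold in 16-cell over 8-cell embryos (3.46 ± 0.45, adjusted p = 1.8e-05) and 10.5-fold in blastocysts over 16-cell embryos (3.36 ± 0.45, adjusted p = 9.7e-06). In blastocysts PDHB was 54.0-fold above GV oocytes (5.69 ± 0.45, adjusted p = 3.2e-09).

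PDHA1, the alpha subunit of the same enzyme, had 2661, 1953 and 2166 scaled counts in blastocysts, against 591, 550.6 and 809.2 in 16-cell embryos (1.80 ± 0.43, adjusted p = 0.003). Its 16-cell values lay above the 111.9, 131.3 and 262.5 of 8-cell embryos, 3.86-fold (2.0 ± 0.43, adjusted p = 0.0015). DLAT, the E2 subunit that hands on the acetyl group, behaved differently. It had 67.4, 33.9 and 313.7 in 16-cell embryos, against 514.7, 76.4 and 509.2 in 8-cell embryos, overlapping and not called (-1.54, adjusted p = 0.096). Without 8-cell replicate 2 and 16-cell replicate 1 together that difference was -2.23 (adjusted p = 0.022), and it was called also with array weights (-2.07, adjusted p = 0.042) and with the replicate block (-1.54, adjusted p = 0.029). In blastocysts DLAT averaged 665.1 ± 341, a 4.81-fold rise over 16-cell embryos (2.67 ± 0.69, adjusted p = 0.0051).

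PC, pyruvate carboxylase, which feeds pyruvate into the cycle as oxaloacetate, had 928.1, 1045 and 683 scaled counts in 16-cell embryos, against 75.6, 16.8 and 182.4 in 8-cell embryos. The rise was 9.66-fold (3.69 ± 0.69, adjusted p = 0.00047), with no overlap. Its blastocyst libraries, at 341.9, 1289 and 455.9, spread around the 16-cell ones, and the gene was 34.8-fold above GV oocytes (4.67 ± 0.69, adjusted p = 1.4e-05).

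**Figure D4:**
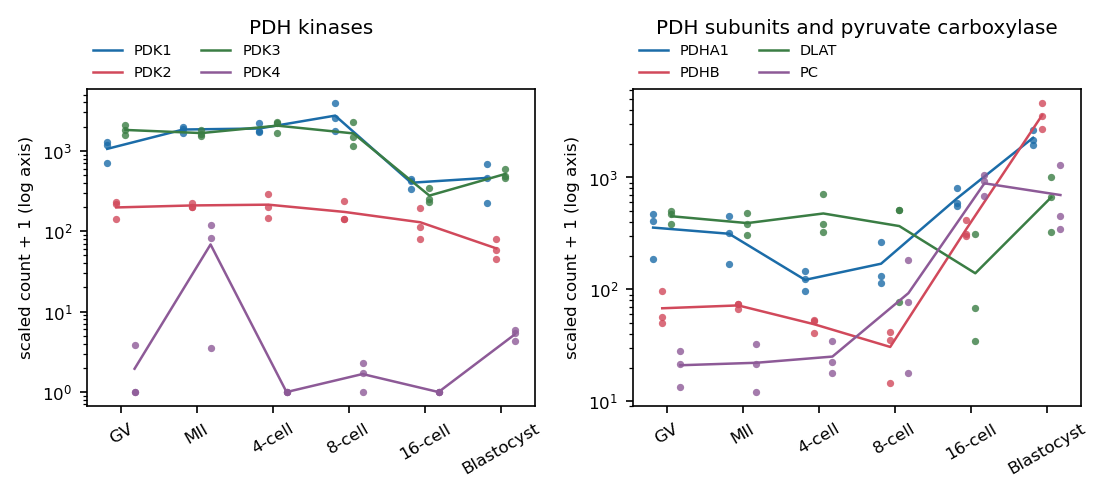
Scaled counts plus 1 on a log axis for the pyruvate dehydrogenase (PDH) kinases, left, and for PDH subunits and pyruvate carboxylase, right; points are libraries and lines join stage means. PDK1 and PDK3 stay at 705.3 or more up to the 8-cell stage and at 692.5 or less afterwards, while PDHB is at 95.4 or less up to 8 cells and at 2682 or more in blastocysts.

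In the citrate cycle 5 of 9 genes rose in 16-cell against 8-cell embryos and 7 of 9 in blastocysts against 16-cell embryos. The 5 were IDH3A and IDH3B, subunits of the NAD-dependent isocitrate dehydrogenase, SUCLG1, the alpha subunit of succinyl-CoA synthetase, and the cytosolic and mitochondrial malate dehydrogenases MDH1 and MDH2. IDH3A averaged 650.1 ± 219.5 in 16-cell and 169.2 ± 114.5 in 8-cell embryos (2.13 ± 0.57, adjusted p = 0.007). SUCLG1 averaged 250 ± 87.9 in 16-cell and 49.5 ± 34.3 in 8-cell embryos (2.52 ± 0.57, adjusted p = 0.0021). MDH2 averaged 656.6 ± 226.5 in 16-cell and 268.9 ± 159.6 in 8-cell embryos, with overlap (1.37 ± 0.40, adjusted p = 0.012).

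8-cell replicate 2 bears on these calls, since its MDH1 level was 4.58 scaled counts where the others of that stage had 166.8 and 80.1, and its SUCLG1 level 9.93 where they had 69.2 and 69.6. Without that library the 16-cell rise was 1.48 for IDH3A (adjusted p = 0.052), 1.74 for IDH3B (0.07) and 1.13 for MDH1 (0.085), and all 3 calls were lost. MDH2 was lost without 8-cell replicate 3 (0.065) or 16-cell replicate 1 (0.052), whereas SUCLG1 was kept without any 1 library. Array weights also ended the calls of IDH3A, IDH3B, MDH1 and MDH2 (adjusted p from 0.12 to 0.2), and a fit of only both stages those of SUCLG1 (0.067), MDH1 (0.11) and MDH2 (0.1).

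MDH1 had 3638, 2623 and 1662 scaled counts in blastocysts, against 307.9, 234.3 and 239.4 in 16-cell embryos. The libraries of both stages did not overlap, and MDH1 rose 10.1-fold (3.26 ± 0.71, adjusted p = 0.0014). FH, the fumarase, had 1762, 1285 and 1028 in blastocysts, against 141.6, 118.6 and 237.6 in 16-cell embryos (3.03 ± 0.74, adjusted p = 0.0034). FH was high in oocytes as well, at 790.8 ± 22.3 in the GV and 734.9 ± 115.1 in the MII stage, and its blastocyst level was not called against GV oocytes in the model of all libraries, but was with only both stages in the fit (0.74, adjusted p = 0.045). Its 8-cell values of 396.4, 9.93 and 225.7 overlapped the 4-cell values of 565.3, 374.1 and 374.8 (-2.0, adjusted p = 0.085). FH was called lower there by voom (-2.27, adjusted p = 0.043) and with library medians set equal (-2.24, adjusted p = 0.032).

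MDH2 averaged 2235 ± 640.2 in blastocysts and 656.6 ± 226.5 in 16-cell embryos (1.77 ± 0.40, adjusted p = 0.0017). OGDH, the E1 subunit of the oxoglutarate dehydrogenase, averaged 446.7 ± 212.7 in blastocysts and 95.7 ± 92 in 16-cell embryos (2.61 ± 0.70, adjusted p = 0.0066). CS, citrate synthase, the entry enzyme of the cycle, had 2696, 4863 and 3482 in 8-cell embryos, below the 5001, 6556 and 5845 of 4-cell embryos. That difference was not called (-0.69, adjusted p = 0.071), but it was by voom (adjusted p = 0.034) and with array weights (-0.83, adjusted p = 0.01). It was called also without 8-cell replicate 2 and 16-cell replicate 1 together (-0.91, adjusted p = 0.014). CS had 7189, 5680 and 8473 in blastocysts, against 4348, 3306 and 4538 in 16-cell embryos. The rise was 1.75-fold (0.80 ± 0.24, adjusted p = 0.015) and the libraries did not overlap. With library medians set equal it was 0.44 (adjusted p = 0.4). The call was lost also without 16-cell replicate 2 (0.071) or blastocyst replicate 3 (0.082) and with only both stages in the fit (0.078).

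IDH3A rose again in blastocysts, to 2056 ± 970 against 650.1 ± 219.5 in 16-cell embryos (1.61 ± 0.57, adjusted p = 0.035), and so did SUCLG1, to 818 ± 182.2 against 250 ± 87.9 (1.74 ± 0.57, adjusted p = 0.023). Setting library medians equal ended both calls (adjusted p = 0.12 for IDH3A and 0.064 for SUCLG1). Leaving out 1 library ended the IDH3A call without 16-cell replicate 2 (0.13), 16-cell replicate 3 (0.051), blastocyst replicate 1 (0.16) or blastocyst replicate 3 (0.069). The SUCLG1 call ended without 16-cell replicate 3 (0.09), blastocyst replicate 1 (0.08) or blastocyst replicate 2 (0.07).

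IDH3B was the 1 member called lower in MII against GV oocytes in the model of all libraries. With array weights LDHB (-0.93, adjusted p = 0.017) and MDH2 (-1.28, adjusted p = 0.01) were called lower there too. They were called also with only both stages in the fit (-0.93, adjusted p = 0.048, and -1.2, adjusted p = 0.026). IDH3B had 12.8, 10.5 and 0.858 scaled counts in MII oocytes, against 76.8, 130.7 and 103.4 in GV oocytes. The libraries did not overlap, and the level was 12.8-fold lower (-3.41 ± 0.77, adjusted p = 0.037). The IDH3B call was lost by voom (-4.17, adjusted p = 0.075) and without any 1 of the 6 GV and MII libraries (adjusted p from 0.059 to 0.21). It was lost also without blastocyst replicate 1 (0.052), 2 (0.05) or 3 (0.052), which enter the shared estimate of the spread. In blastocysts IDH3B averaged 1181 ± 259 and in 16-cell embryos 457.3 ± 178.3, without overlap (1.41 ± 0.77, adjusted p = 0.18). That difference was called by voom (1.49, adjusted p = 0.023) and with only both stages in the fit (1.41, adjusted p = 0.024). Against GV oocytes it rose 11.4-fold (3.47 ± 0.77, adjusted p = 0.00088).

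SUCLA2, the beta subunit of the ATP-forming succinyl-CoA synthetase, was called in blastocysts against GV oocytes, with 1095 ± 421.7 in blastocysts and 310.7 ± 107.1 in GV oocytes (1.78 ± 0.50, adjusted p = 0.006). Its 16-cell libraries had 2099, 652.2 and 2485, against 468.4, 562 and 1053 in 8-cell embryos, and missed the threshold (1.2, adjusted p = 0.073), which they passed by voom (1.4, adjusted p = 0.026) and with the replicate block (1.2, adjusted p = 0.029). In blastocysts against GV oocytes 22 members rose and 4 fell, together 26 of 35 where 45.9% of all genes were called, the 4 being LDHA, PDK1, PDK2 and PDK3.

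**Figure D5:**
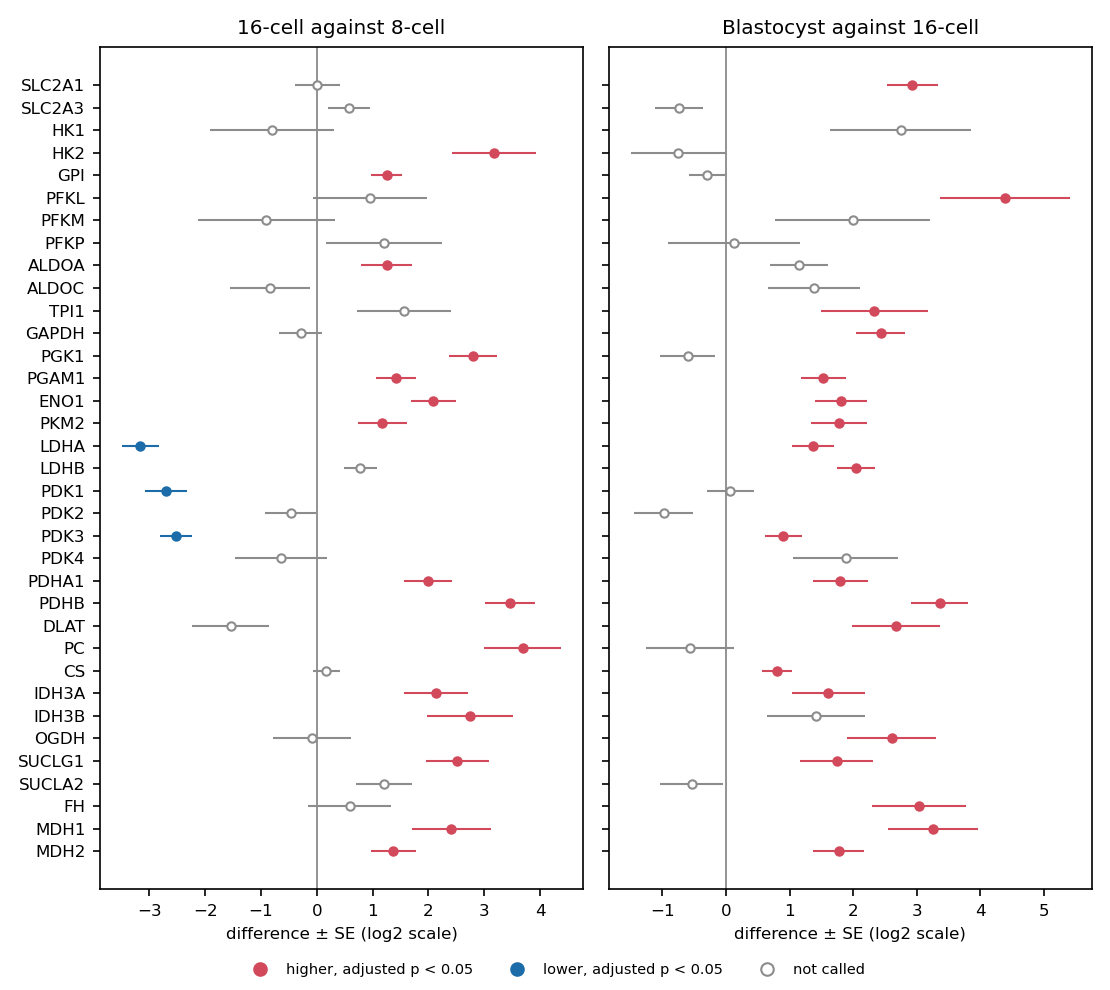
Differences on the deposited log2 scale with their SE for the 35 members, in 16-cell against 8-cell embryos (left) and in blastocysts against 16-cell embryos (right); filled points passed an adjusted p of 0.05. On the left 15 points are called higher and LDHA, PDK1 and PDK3 lower, and on the right 20 are called higher and 0 lower.

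A wider list of 84 genes of the same and neighbouring pathways, of which 77 were tested, was followed for context. In 16-cell against 8-cell embryos 14 of the 77 rose and 15 fell, 18.2% and 19.5% of the list against 14.8% and 16.3% of all genes. In blastocysts against 16-cell embryos 21 rose and 9 fell, 27.3% and 11.7% against 18.2% and 13.1% of all genes. By limma and by voom 0 genes of the wider list passed in MII against GV oocytes or in 4-cell embryos against MII oocytes. At an unadjusted p under 0.05, 2 were higher and 4 lower in the first of these comparisons and 2 higher and 5 lower in the second. Beyond that, 7 rose and 5 fell in 8-cell against 4-cell embryos. By F test 58 of 77 changed over the stages, 75.3% against 67% of all genes.

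Genes of this wider list rose beside SLC2A3 at the 8-cell stage. SLC2A5, the fructose carrier GLUT5, had 84.1, 77.1 and 157.5 scaled counts in 8-cell embryos, against 3 reads in all in 4-cell embryos (5.20 ± 0.65, adjusted p = 8.5e-06), and averaged 3838 ± 705.5 in blastocysts. PDP2, a phosphatase that reverses the pyruvate dehydrogenase kinases, had 6669, 6577 and 8015 in 8-cell embryos, against 538.3, 627.5 and 556.3 in 4-cell embryos. Its libraries were wide apart, and it rose 12.3-fold (3.61 ± 0.24, adjusted p = 1.4e-09). TKT, the transketolase of the pentose phosphate pathway, averaged 996.5 ± 937.4 in 8-cell and 43.6 ± 14 in 4-cell embryos (3.96 ± 0.53, adjusted p = 1.9e-05).

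At the 16-cell stage the succinate dehydrogenase genes SDHA and SDHB, whose enzyme links the cycle to the respiratory chain, had the smallest adjusted p of the wider list. SDHA averaged 399 ± 169.7 in 16-cell and 23.1 ± 27.8 in 8-cell embryos (4.33 ± 0.56, adjusted p = 1.6e-05). SDHB averaged 2376 ± 693.9 in 16-cell and 350 ± 35.6 in 8-cell embryos (2.71 ± 0.34, adjusted p = 1.1e-05). PPARGC1A, a coactivator known to drive mitochondrial genes, fell in the same comparison, to 447 ± 276.5 in 16-cell embryos against 2732 ± 910.2 in 8-cell embryos (-2.83 ± 0.45, adjusted p = 1e-04). It was lower still in blastocysts, at 12, 13.1 and 9.68, than in 16-cell embryos, at 573, 638.1 and 129.9 (-4.57 ± 0.45, adjusted p = 1.6e-07).

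In blastocysts GLUD1, the glutamate dehydrogenase that supplies oxoglutarate, had 4015, 3863 and 4401 scaled counts, against 523.6, 369.9 and 343.4 in 16-cell embryos (3.32 ± 0.30, adjusted p = 6.6e-08). SLC25A12, an aspartate-glutamate carrier of the malate-aspartate shuttle, had 67.3, 83.3 and 61 in blastocysts, against 1288, 1367 and 1776 in 16-cell embryos (-4.31 ± 0.41, adjusted p = 1.1e-07). The libraries were separate for both genes, in opposite directions. ME1, the cytosolic malic enzyme, averaged 23.8 ± 14.5 in blastocysts and 1468 ± 282.7 in GV oocytes (-5.83 ± 0.45, adjusted p = 2.1e-09).

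The mitochondrial pyruvate carrier genes are listed under their older symbols BRP44L and BRP44 and are named here after their values were seen. BRP44L had 3981, 1166 and 1029 scaled counts in blastocysts, against 38.2, 2.82 and 37.1 in 16-cell embryos, and rose 79.0-fold (6.24 ± 0.70, adjusted p = 9.6e-07). BRP44 had 805.2, 635.4 and 423 in blastocysts, against 133.7, 112.9 and 120.6 in 16-cell embryos (2.26 ± 0.55, adjusted p = 0.0032). For both, every blastocyst library lay above every 16-cell library. In 16-cell against 8-cell embryos, by contrast, BRP44L was called lower and BRP44 higher. The BRP44L call was lost by voom (-2.75, adjusted p = 0.11) and with only both stages in the fit (-2.54, adjusted p = 0.12). It was lost also without 8-cell replicate 2 (0.051) or 16-cell replicate 2 (0.061). The BRP44 call was lost with only both stages in the fit (2.27, adjusted p = 0.12).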

How the data were processed

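Pools of oocytes or embryos were lysed and 1 part of each lysate was turned into cDNA with mixed random and poly(A) primers, amplified and sequenced, per the labels' protocols. The submitters' processing notes name CASAVA 1.6, TopHat2 2.0.3, HTSeq, DESeq and the build UMD3.1. For annotation, strand setting and reads with several matches, details were not given in the sources used here, so genes with close copies or overlapping neighbours are uncertain (GAPDH, LDHA, LDHB, PGK1, PGAM1, ENO1, TPI1 and others with known pseudogenes). The table deposited by the authors holds variance-stabilised values on a log2 scale, for 21668 genes in 18 libraries, with 0 columns left unused.

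The transformation was inverted in closed form: 390024 of 390024 values came out as whole reads within a relative tolerance of 1e-06. The lowest deposited value, 1.097, stands for 0 reads. Counting and amplification without molecular identifiers mean that read numbers cover counting error only. A model of stage was fitted to the deposited values of all 18 libraries with limma 3.58.1 in R 4.3.3 (empirical Bayes with trend), for each gene that had 1 read or more in 3 or more libraries. The 5 consecutive contrasts, blastocyst against GV and an F test over stages were read out, two-sided. Isoform shares are of scaled counts. On simulated data this test recovered 42% to 50% of genes changed 4-fold and 84% to 92% of those changed 8-fold, over the 5 consecutive comparisons, with 3 to 11 false calls among 18025 to 18062 genes. There 50 genes per fold were changed at the tested stage only, none with a very low mean, and the spread was assumed. In the real data many more genes changed, so these shares are not the recovery in the real comparisons.

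The members and lists were chosen with earlier results of these data known. Every member is accounted for. Of the wider list, up to 3 genes per comparison with the smallest adjusted p among those called are named. BRP44L, BRP44 and LDHC are named besides, after their values were seen. PDP2 was matched to its row by the symbol that NCBI RefSeq gives that gene ID. Sequences and coordinates were not used here. Alternatives were voom on the recovered reads, array weights, library medians set equal, no filter, a filter of at least 10 reads in 3 libraries, the replicate number as a block, only the libraries of both stages, each library left out, and, chosen after seeing the data, 8-cell replicate 2 and 16-cell replicate 1 left out together.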

Additional observations from a re-analysis of the deposited data

How the results depend on the processing

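Of 69 member calls over the 6 comparisons, 50 held in each of the fits run, 16 were lost in at least 1 other setting and 17 without at least 1 library; no call changed sign. Members called in MII against GV oocytes numbered 2, but 1 by voom, 4 with array weights and 1 with at least 10 reads in 3 libraries. In 4-cell embryos against MII oocytes they numbered 1, but 3 with array weights, 0 with at least 10 reads, 2 with only both stages and 2 without 8-cell replicate 2 and 16-cell replicate 1. For the count of 0, PDK4 was not among the genes left to test. With array weights the members gained there were MDH1 (-1.75, adjusted p = 0.015) and PDHA1 (-1.25, adjusted p = 0.02). In 8-cell against 4-cell embryos the members called numbered 2, but 4 by voom, 6 with array weights and 6 without those 2 libraries. The causes were not tested. Leaving out 1 library gave 0 to 2, 0 to 2, 2 to 6, 16 to 18, 17 to 22 and 24 to 27 calls in the 6 comparisons, from MII against GV to blastocyst against GV, and 29 to 31 by F test; the 6 came without 8-cell replicate 2. With the replicate number as a block the counts were 2, 1, 3, 21, 21 and 26, and 31 by F test. The labels do not say that libraries with the same number belong together, so the block was run as an alternative only. Deviations from the stage mean correlated with a median r of 0.0404 over 45 same-number pairs, from -0.108 to 0.202. Over pairs with different numbers the median r was -0.0229. Of 18 libraries, 14 correlated best with their own number, and whether same-numbered libraries share a source was not tested.

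With library medians set equal the median difference of all genes moved to 0.315 in MII against GV oocytes and 0.124 in 4-cell embryos against MII oocytes. It moved to -0.24 in 8-cell against 4-cell embryos, to -0.121 in 16-cell against 8-cell embryos, and to -0.174, where it had been 0.185, in blastocysts against 16-cell embryos. The share of higher calls among all genes then changed to 27.5% from 13.9% in MII against GV oocytes, to 54.3% from 67.6% in 8-cell against 4-cell embryos, and to 45.6% from 58.1% in blastocysts against 16-cell embryos. Member counts were then 2, 1, 3, 17, 16 and 25, and in blastocysts against 16-cell embryos 14 rose and 2 fell, PDK2 (-1.34, adjusted p = 0.034) and SLC2A3 (-1.10, adjusted p = 0.048). Changes of 2-fold were mostly missed on simulated data, with 0% to 10% recovered.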
